A study of Mus musculus with 10 samples.

Results

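ZFP266 is a zinc finger protein whose binding in mouse embryonic fibroblasts (MEFs) was mapped by DamID-seq. Of the 15119 deposited peaks, 294 had their midpoint in an exon of a curated RefSeq transcript, outside the promoter window (from 1000 bp before to 100 bp past a start site) and the matching window at transcript ends. The 5 peaks over *Zfp266* itself on chromosome 9, which carry plasmid reads, were left out, so that 15114 peaks were kept for comparison. The 294 exon peaks divided into 133 in coding sequence, 28 in 5′ UTRs, 84 in 3′ UTRs and 49 in exons of noncoding transcripts. They lay on 282 genes.

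MEFs of strain 129 received a plasmid encoding Dam fused to ZFP266 (PGK-mO-Dam-Zfp266, 5 samples) or Dam alone (PGK-mO-Dam, 5 samples), both driven by the PGK promoter with mOrange as the leading reading frame. Cells were sorted 48 h after nucleofection and 32 ng of genomic DNA entered each library. The fusion was introduced transiently in cells that keep their own *Zfp266*, so the peaks describe an added protein. The 10 samples were reduced by the authors to 1 list of peaks, so no value below has a replicate error or a test, the read depth is unknown, and the cell type could not be checked against markers. The intervals given are 95% Wilson intervals and cover counting error only.

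In DamID, a DNA adenine methylase tethered to a protein marks GATC sites near the places that the protein visits, and the marked fragments are cut with DpnI and sequenced. Many zinc finger proteins with a KRAB domain silence transposable elements, and exons are the parts of the genome where such elements are rarest, because insertions there disrupt the message. B1 SINEs are short mouse retrotransposons derived from 7SL RNA, common in introns and tolerated in untranslated regions. AP-1, a dimer of FOS and JUN family proteins, binds the core motif TGACTCA, which reads TGAGTCA on the opposite strand.

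Sequences of 3 kinds recurred in the exon peaks, and 30 bases of each are printed from GRCm38 to show what the counts below refer to. For B1 SINEs, the stretch aligned to positions 36 to 65 of the consensus is shown for the 6 exon peaks whose exonic B1 SINE was most identical to it. Capitals mark bases identical to the consensus, and each stretch reads along the B1 SINE.
consensus of genomic copies: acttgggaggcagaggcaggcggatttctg
*Zc3hav1* 3′ UTR, chr6:38306197-38306226, plus strand: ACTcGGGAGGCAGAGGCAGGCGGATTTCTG
*Ptafr* 3′ UTR, chr4:132581785-132581814, minus strand: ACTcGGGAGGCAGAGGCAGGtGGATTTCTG
*Prdm9* 3′ UTR, chr17:15543496-15543525, plus strand: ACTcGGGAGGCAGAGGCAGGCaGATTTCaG
*Mc1r* 3′ UTR, chr8:123408865-123408894, plus strand: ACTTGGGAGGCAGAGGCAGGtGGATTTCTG
*Gm28455* 3′ UTR, chr7:39499300-39499329, minus strand: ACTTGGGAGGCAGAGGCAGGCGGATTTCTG
*Rdh1* 3′ UTR, chr10:127767925-127767954, minus strand: ACTctGGAGGCAcAGGCAGGtGGATTTCTG

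For AP-1, the core motif (capitals) is shown with its flanks for the 6 exon peaks of highest signal value that held it in exon bases. These stretches read along the gene.
*Ubap1* 5′ UTR, chr4:41353489-41353518, plus strand: cttccagtgttTGAGTCActgcactggctc
*Slc22a13* coding exon, chr9:119208716-119208745, minus strand: acacaggcctgTGACTCAggctgggactat
*Prune2* coding exon, chr19:17124496-17124525, plus strand: ggttccaataaTGAGTCAtctccatcaaac
*Zfp37* 3′ UTR, chr4:62189587-62189616, minus strand: ttttgttaacaTGAGTCAtaactgttaaca
*Exo5* 5′ UTR, chr4:120924639-120924668, minus strand: ccctagcagtgTGACTCAagtggaaacacc
*Zrsr1* 5′ UTR, chr11:22972984-22973013, plus strand: aaacacgccggTGACTCAgctggttcaagc

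For the zinc finger genes, the codons of the linker between neighbouring fingers (TGEKP, capitals, or SGEKP, where the serine codon is TCA) are shown from the 6 *Zfp* genes of highest signal value whose peak held one. In each, the leading lower case codon is that of the closing histidine of a finger.
*Zfp951*, chr5:104815078-104815107, minus strand: catACTGGAGAGAAGCCCtatgaatgtaag
*Zfp949*, chr9:88569330-88569359, plus strand: cacACAGGAGAAAAGCCCtatggatgcagt
*Zfp37*, chr4:62192091-62192120, minus strand: cacACTGGGGAGAAACCAtatgaatgtaat
*Zfp263*, chr16:3749686-3749715, plus strand: catACAGGAGAAAAACCCtatacctgtcac
*Zfp955a*, chr17:33241606-33241635, minus strand: cacACTGGAGAGAAGCCCtatacatgtaaa
*Zfp945*, chr17:22851697-22851726, minus strand: catTCAGGAGAAAAACCTtacaaatgtagt

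Exons are a small part of the genome and held a small part of the peaks. The exon bases outside the promoter and transcript end windows came to 63.4 Mb, 2.39% of the genome, and the exon peaks were 1.95% of all peaks. This gave 4.64 peaks per Mb in exons against 5.71 per Mb over the whole genome. The density was not the same among kinds of exon. It was 3.97 peaks per Mb in coding sequence and 3.78 per Mb in 3′ UTRs, below the 7.18 per Mb of introns and the 4.74 per Mb of intergenic sequence. Promoter windows, which the exon classes leave out, held 11.1 per Mb (350 peaks) and transcript end windows 6.06 per Mb (172 peaks). In 5′ UTRs the density was 11.1 per Mb, above introns and level with promoter windows. In noncoding exons it was 9.44 per Mb, also above introns. The 5′ UTR and noncoding exon densities rest on 28 and 49 peaks. The number of peaks in these classes hangs on the annotation. With predicted RefSeq models added, an alternative density chosen after seeing the data, 126 peaks in 5′ UTRs gave 12.7 per Mb and 269 in noncoding exons gave 9.85 per Mb, beside 7.09 per Mb in introns, 3.85 per Mb in coding sequence and 3.73 per Mb in 3′ UTRs. The median DpnII fragment holding a base was of similar length in all classes, between 667 bp in coding sequence and 782 bp in 3′ UTRs.

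**Figure D1:**
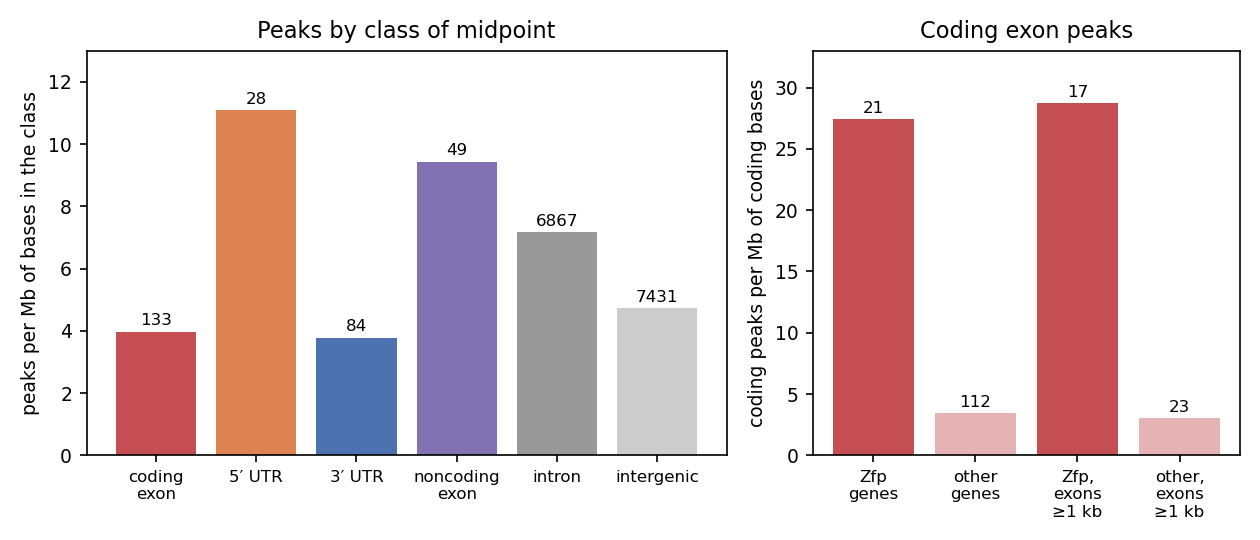
Left, ZFP266 peaks per Mb of bases in each class of midpoint, with the number of peaks above each bar. Promoter and transcript end windows are not drawn. The bars of 5′ UTRs and noncoding exons stand above introns, those of coding exons and 3′ UTRs below. Right, coding exon peaks per Mb of coding bases for genes named Zfp plus a number and for all other genes, in all exons and in exons of 1 kb or more.

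Peaks are runs of whole DpnII fragments, so an exon usually filled only a part of its peak. The exon peaks were 294 to 6845 bp long with a median of 1706 bp (all peaks 1777 bp), and 177 of the 294 (60.2%, interval 54.5 to 65.6%) were a single DpnII fragment. Exons covered a median of 61.2% of the bases of an exon peak. In coding peaks this was 29.2%, and 44.4% of them had under 25% of their bases in exons. In 5′ UTR peaks it was 42.8%, in noncoding exon peaks 66.7% and in 3′ UTR peaks 89.6%. The longest exon peak, 6845 bp of 7 DpnII fragments over *Rbks* (ribokinase), had 1.94% of its bases in exons. In contrast, 66 peaks (22.4%, interval 18.1 to 27.6%) lay wholly inside 1 exon, of which 31 were 3′ UTR peaks and 20 coding peaks.

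The position of the midpoint decides membership, and a few peaks stood near that border. In 16 exon peaks the midpoint was within 10 bp of an exon edge, and 15 peaks counted as intronic or intergenic had it within 10 bp outside one. A further 51 peaks had an exonic midpoint but fell in a promoter window (30) or a transcript end window (21).

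**Figure D2:**
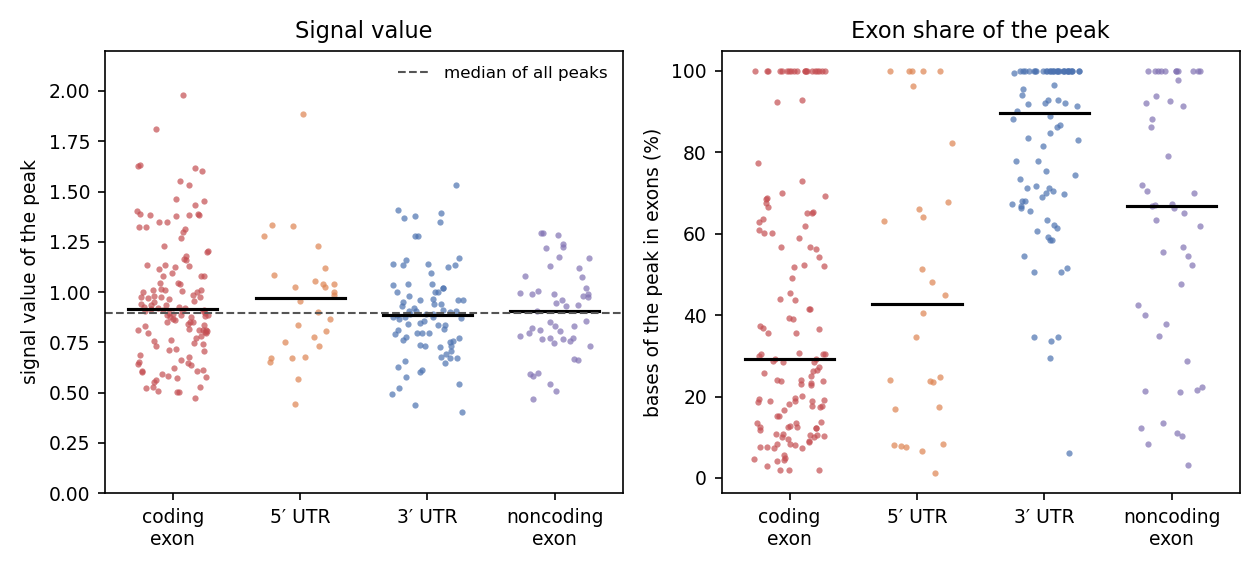
Each point is 1 exon peak, by class of its midpoint, with the class median as a black bar. Left, the deposited signal value, with the median of all peaks (0.898) dashed; right, the percentage of the bases of the peak in exons, which ran from near 0 to 100% in coding peaks and was mostly above 50% in 3′ UTR peaks.

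The signal value, the enrichment of Dam-ZFP266 over Dam alone that the peak caller gave each peak on a scale the sources do not state, ran from 0.403 to 1.98 in exon peaks with a median of 0.907. Over all peaks the median was 0.898. The class medians were close to each other, 0.915 in coding exons, 0.970 in 5′ UTRs, 0.887 in 3′ UTRs and 0.908 in noncoding exons, and the ranges overlapped throughout. The list as deposited holds peaks to a q-value of 0.1. At q under 0.05 with a signal value above 1, 26.3% of all peaks remained, and 67 of the 294 exon peaks (22.8%, interval 18.4 to 27.9%). By class these were 36 coding (27.1%), 8 5′ UTR (28.6%), 14 3′ UTR (16.7%, interval 10.2 to 26.1%) and 9 noncoding (18.4%) peaks. The share in 3′ UTRs was the lowest, with an upper bound just under the value over all peaks.

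Among coding peaks the highest signal value was 1.98, over *Polrmt*, the RNA polymerase of mitochondria (chr10:79739625-79742201, midpoint in exon 7 of 21). A second *Polrmt* peak had a signal value of 1.53 (chr10:79736820-79738819, exon 14 of 21). Neither held a B1 SINE or an AP-1 core motif. *Agap2*, a GTPase-activating protein of small G proteins, followed at 1.81 with a B1 SINE of 84.1% identity outside its exons (chr10:127086165-127088338). *Zan*, a sperm protein that binds the egg coat, had 1.63 (chr5:137425134-137426394, exon 40 of 88). *Slc22a13*, an organic anion transporter, had 1.63 (chr9:119207691-119209929), *Vangl1*, a planar cell polarity protein, 1.62 (chr3:102183342-102185320) and *Gm21814*, a predicted zinc finger gene, 1.60 (chr6:149584016-149585482). In *Polrmt*, *Agap2*, *Zan*, *Slc22a13* and *Vangl1* the exons covered between 18.9 and 51.7% of the peak, so their signal belongs to fragments that span exons and introns alike. Coding peaks lying wholly in exon bases were exemplified by *Arc*, an immediate early gene of neurons (signal value 1.55, 555 bp), and *Cux2*, a homeodomain factor of cortical neurons (1.38, 867 bp, last exon).

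In 5′ UTRs the highest signal value, 1.89, fell on *Ubap1*, a subunit of the ESCRT-I complex that sorts ubiquitinated membrane proteins. That 810 bp peak (chr4:41353051-41353860) was a single fragment inside a 3074 bp exon 1, and its 2 AP-1 core motifs were both in the exon, 1 of them printed above. A neighbouring *Ubap1* peak had a signal value of 1.28 (chr4:41351712-41352489) and held no AP-1 core motif but a B1 SINE of 93.6% identity, outside exon bases. *Exo5*, a DNA exonuclease, had 1.33 (chr4:120924043-120925261), with the AP-1 core motif in the exon and a B1 SINE of 96.4% identity beside it. *Morc2a*, an ATPase that acts in gene silencing, also had 1.33 (chr11:3649554-3650303, all bases in exons) and held neither element. *Zrsr1*, an imprinted splicing factor gene that lies within *Commd1*, had 1.06, and the midpoint of its peak is also in a 5′ UTR of *Commd1*. 

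In 3′ UTRs the highest signal value was 1.53, over *Heatr3*, a HEAT repeat protein (chr8:88170662-88171850, 83.4% exon bases). *Zfp951* had 1.41, *Ptafr*, the receptor for platelet activating factor, 1.39, *Styxl1*, a pseudophosphatase, 1.38, and *Zfp37* 1.37. *Trim71*, an RNA-binding ubiquitin ligase of early development, had 1.35 (chr9:114511051-114512688). Its last exon held a second, coding peak with a signal value of 1.08 (chr9:114513253-114514086). *Tnfrsf22*, a decoy receptor for TRAIL, also held 2 peaks in its last exon, with signal values of 1.28 and 1.04. In the former, 71.3% of the 32-base words occur again elsewhere in the genome. Whether the reads there were placed uniquely was not tested.

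Noncoding exon peaks reached 1.30 over *Gm4319* (chr1:72108391-72109591), 1.29 over *Gm14317* (chr2:164558957-164559418), 1.28 over *Gm15706* (chr6:145250764-145252666) and 1.24 over *D030068K23Rik* (chr8:109250342-109252676). All 4 midpoints were in the last exon of the transcript, as were 32 of the 49 noncoding midpoints (65.3%, interval 51.3 to 77.1%), compared with 70.3% of the bases in noncoding exons. None of these 4 peaks held a B1 SINE, and 1, over *Gm4319*, held an AP-1 core motif, outside exon bases.

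More than 1 exon peak was found in 11 genes accounted for 23 of the 294. *Zfp37* held 3, with signal values of 1.37 in its 3′ UTR, 1.20 in the coding part of the same last exon and 0.915 at exon 3 of 4. The others held 2 each and included *Polrmt*, *Ubap1*, *Gm21814*, *Trim71* and *Tnfrsf22*. In *Gm21814* the peak on the last exon had a signal value of 1.60 and the one at exon 3 had 0.841.

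Zinc finger genes of the C2H2 type, the family to which *Zfp266* belongs, recurred among the coding peaks. Most of these genes encode their whole array of fingers in 1 long last exon. Genes with a symbol of *Zfp* plus a number held 21 of the 133 coding peaks (15.8%, interval 10.6 to 22.9%), while they make up 2.29% of coding bases. This corresponded to 27.5 coding peaks per Mb in *Zfp* genes and 3.43 per Mb in all other genes. Exon length differed as well, with a median of 2737 bp for the exon at the midpoint in *Zfp* coding peaks and 198 bp in the others. Within exons of 1 kb or more, *Zfp* genes held 17 of 40 coding peaks (42.5%, interval 28.5 to 57.8%) and 7.27% of coding bases, or 28.8 peaks per Mb against 3.05 per Mb. With genes counted by 3 or more C2H2 fingers in the translated coding sequence, the share was 30 of 133 (22.6%) beside 3.77% of coding bases. That count adds genes with other symbols, such as *Gm21814* and *Prdm9*, and drops *Zfp365*, in which no such finger was found. No protein table was used, and the number of fingers was read from the reference genome.

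The *Zfp* genes with the highest signal values were *Zfp951* (1.41), *Zfp949* (1.38), *Zfp37* (1.37), *Zfp263* (1.17), *Zfp955a* (1.17) and *Zfp945* (1.12). The *Zfp951* peak (chr5:104813267-104815129) is a 3′ UTR peak by its midpoint but covered 9 of the 10 fingers of the gene. The *Zfp949* peak (chr9:88567535-88570447) covered all 11 fingers, the *Zfp945* peak (chr17:22850761-22852020) 13 of 18 and the *Zfp955a* peak (chr17:33241157-33242236) 8 of 10. The coding *Zfp37* peak (chr4:62191284-62193099) covered 10 of 12 fingers, whereas the 3′ UTR peak of the same exon covered none. Over all exon peaks, 28 covered 3 or more whole fingers (6 to 20, median 11), and 25 of these had their midpoint in the last exon. The 28 lay on 28 genes, and 634 genes of the annotation have 3 or more fingers. Fingers and linkers were not counted in peaks outside exons. In 10 of the 28 (35.7%), *Zfp951* (41.1%) and *Zfp955a* (56.1%) among them, over 40% of the 32-base words of the peak occur again in the genome, compared with 16 of all 294 exon peaks (5.44%). In 13 of the 25 the peak began upstream of that exon, and in 6 it ran past its end. A finger linker of the form printed above occurred in 29 exon peaks, 208 times in all.

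**Figure D3:**
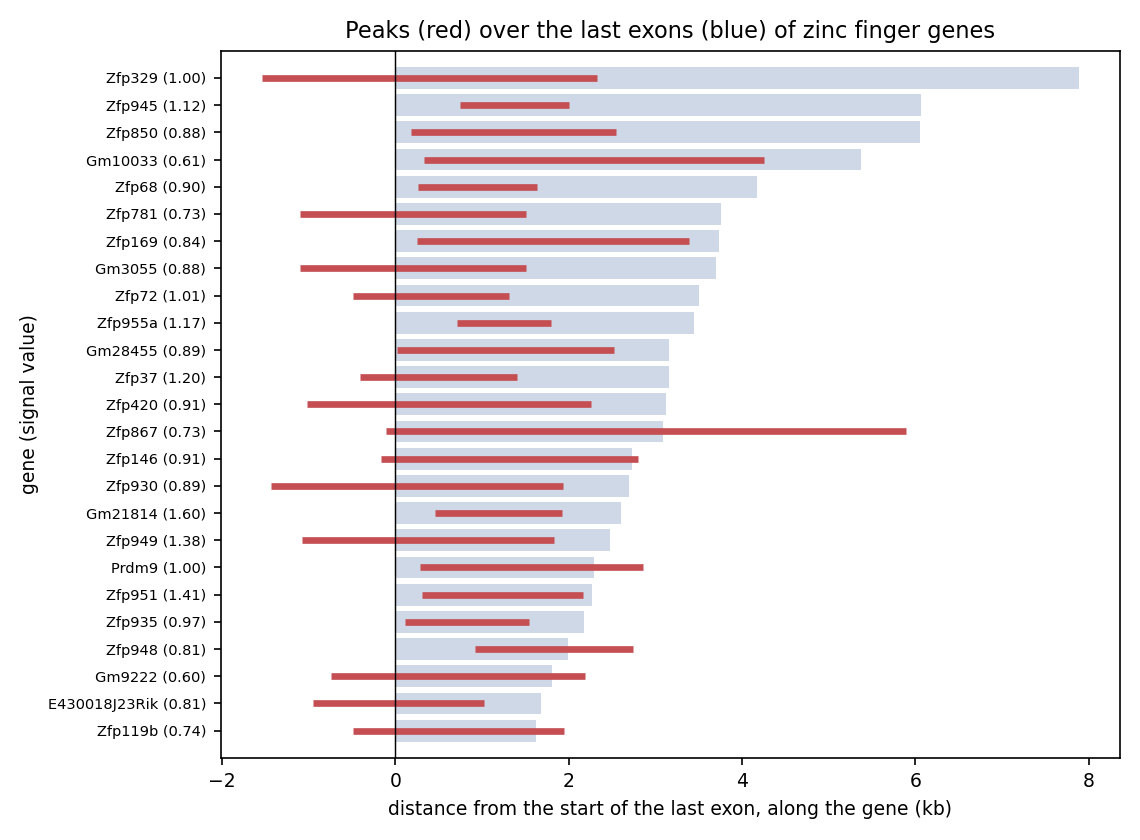
The 25 exon peaks (red) that covered 3 or more whole C2H2 fingers and had their midpoint in the last exon (blue), drawn from the start of that exon along the direction of the gene, in kb, with the signal value after the gene name. In 13 the peak began before the exon did, and in 6 it ran past the end of the exon.

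The signal values of *Zfp* and other coding peaks overlapped. The median signal value was 0.909 in *Zfp* coding peaks (0.643 to 1.38) and 0.923 in the other coding peaks (0.475 to 1.98). Past the stricter threshold were 6 of 21 (28.6%) and 30 of 112 (26.8%). A B1 SINE lay in 5 of the *Zfp* coding peaks (23.8%) and in 39 of the others (34.8%), and an AP-1 core motif in 6 (28.6%) and 35 (31.2%). *Zfp* coding peaks were longer (median 2433 bp against 1652 bp) and poorer in G and C (median 39.9% against 49.8%).

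Because zinc finger genes resemble each other, the uniqueness of the sequence was measured. The median share of 32-base words found again in the genome was 6.78% in *Zfp* coding peaks and 2.08% in the other coding peaks, and it was over 40% in 5 of 21 and in 6 of 112. The extreme was a pair of peaks of the same length, 2617 bp, on *Gm3055* (chr10:81745064-81747680, signal value 0.885) and *Zfp781* (chr10:81904154-81906770, 0.733), with 98.8 and 97.5% of words found again somewhere in the genome. Without the 16 exon peaks over 40%, *Zfp* genes held 13.1% of coding peaks. The plasmid carries the *Zfp266* coding sequence, and the longest run of bases that any exon peak shared exactly with it was 26, in *Zfp68*. The median of that run was 17 in *Zfp* coding peaks and 11 over all exon peaks. How far related sequence contributed to the calls was not tested.

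B1 SINEs, counted from a single shared base, were present in 93 of the 294 exon peaks (31.6%, interval 26.6 to 37.2%), and in 32.9% of all peaks. With only B1 SINEs of at least 100 bp and 85% identity, the share was 18.7% of exon peaks (interval 14.7 to 23.6%) and 23.8% of all peaks. By class, on the former definition, the share was 50% in 5′ UTR peaks (14 of 28, interval 32.6 to 67.4%), 33.1% in coding peaks (44 of 133), 27.4% in 3′ UTR peaks (23 of 84) and 24.5% in noncoding exon peaks (12 of 49). These B1 SINEs were mostly not in the exons. In 68 of the 93 peaks none of them touched an exon base. In coding peaks this held for 42 of 44. In the genome, 0.00427% of coding bases and 1.74% of intron bases are B1 SINE. Exon bases of a peak are counted here in any exon class, so those of coding peaks include UTR bases. The exon bases of coding peaks were 0.205% B1 SINE and the other bases of the same peaks 3.96%. In 3′ UTR peaks the 2 values were 1.72 and 4.09%, and 0.961% of all 3′ UTR bases in the genome are B1 SINE. Within the 200 bp around the midpoint a B1 SINE was present in 2.38% of exon peaks and in 7.55% of all peaks. Exon peaks have an exonic midpoint by the rule of membership, and exon bases of coding peaks hold few B1 SINEs. The lower central share therefore follows in part from that rule and is not a separate result.

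The B1 SINEs that did lie in exons were in UTRs for all 6 of the peaks with the closest match to the consensus. That of *Zc3hav1*, an antiviral protein that binds foreign RNA, was 140 bp at 95.7% identity in the 3′ UTR. *Ptafr* followed at 95.6% over 136 bp and *Prdm9*, the methyltransferase that places meiotic recombination hotspots, at 95.1% over 123 bp. *Mc1r*, the melanocortin receptor of pigment cells, had a coding midpoint, but its B1 SINE (143 bp, 93.7%) was in the 3′ UTR of the same exon. The B1 SINE of *Gm28455* had 93.6% identity and that of *Rdh1*, a retinol dehydrogenase, 93.5%. Signal values of these 6 peaks ran from 0.553 in *Mc1r* to 1.39 in *Ptafr*, and only *Ptafr* passed the stricter threshold. Taking the closest copy in each peak, the median identity to the consensus was 89.6% over the exon peaks with a B1 SINE and 92.3% over all peaks with one.

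**Figure D4:**
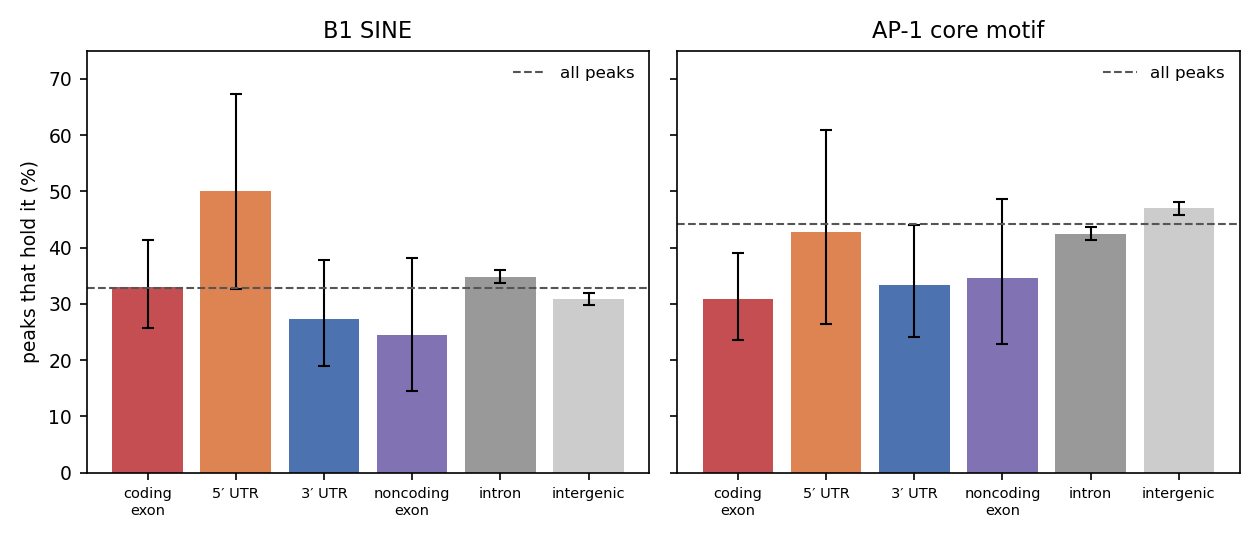
Percentage of peaks holding at least 1 base of a B1 SINE (left) or at least 1 AP-1 core motif (right), by class of midpoint, with 95% Wilson intervals as error bars and the value over all peaks dashed (32.9 and 44.2%). The 4 exon classes lie below the dashed line for AP-1, and both sides of it for B1 SINEs.

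AP-1 core motifs occurred in 98 of the 294 exon peaks (33.3%, interval 28.2 to 38.9%) and in 44.2% of all peaks. The share was 30.8% in coding peaks, 42.9% in 5′ UTR peaks, 33.3% in 3′ UTR peaks and 34.7% in noncoding exon peaks, beside 42.5% in intron and 47.0% in intergenic peaks. Counted by length, there were 0.242 motifs per kb in exon peaks and 0.328 per kb in all peaks. Coding sequence of the genome holds fewer such motifs, 0.113 per kb against 0.173 per kb in introns. Exon bases of the coding peaks, again of any exon class, held 0.0938 motifs per kb (9 motifs) and their other bases 0.336 per kb (54 motifs). In 3′ UTR peaks the 2 densities were 0.167 and 0.391 per kb. The order was the opposite in 5′ UTR peaks, with 0.402 per kb in exon bases (7 motifs) and 0.173 per kb outside (6 motifs), and in noncoding exon peaks, with 0.329 (17 motifs) and 0.193 per kb (8 motifs).

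**Figure D5:**
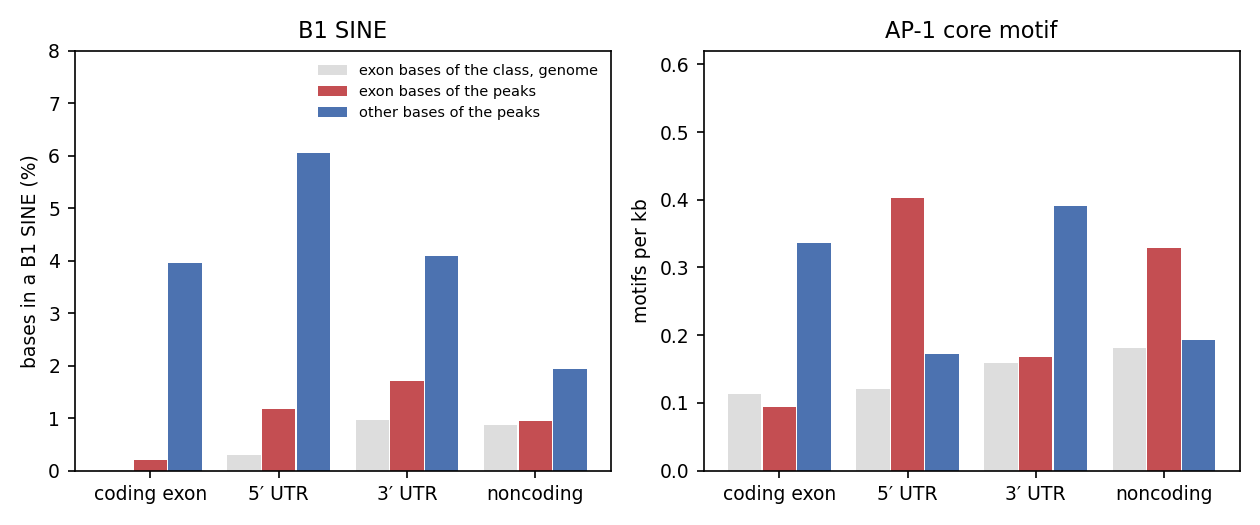
B1 SINE bases (left, %) and AP-1 core motifs (right, per kb) in all exon bases of each class in the genome (grey), in the exon bases of the exon peaks (red) and in their remaining bases (blue). Exon bases of the peaks (red) are of any exon class, unlike the grey bars. In coding and 3′ UTR peaks both elements were denser outside the exons, and in 5′ UTR and noncoding exon peaks AP-1 core motifs were denser inside them.

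In 44 exon peaks at least 1 AP-1 core motif lay in exon bases, 7 of them coding, 6 5′ UTR, 18 3′ UTR and 13 noncoding. Those with the highest signal values, whose motifs are printed above, were *Ubap1* (1.89), *Slc22a13* (1.63), *Prune2* (1.39), *Zfp37* (1.37), *Exo5* (1.33) and *Zrsr1* (1.06). They passed the stricter threshold, but they were chosen by signal value, and that threshold asks for a signal value above 1. Their passing therefore does not describe the 44 peaks. Both elements together were present in 37 exon peaks (12.6%) and in 14.4% of all peaks. Neither was present in 140 exon peaks (47.6%, interval 42.0 to 53.3%), compared with 37.3% of all peaks. Exon peaks also held less repeat-masked sequence (median 17.2% against 24.5%) and more G and C (46.1% against 43.5%). Membership asks for an exonic midpoint, and exons covered a median of 61.2% of an exon peak. How far the share with neither element and these 2 medians follow from that rule was not tested.

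Exon peaks lay on 282 of the 26180 genes of the curated annotation (1.08%). Other gene lists are described by their counts, most of which are too small to compare with that share. Of the 64 extracellular matrix genes, coding peaks lay over the laminin chain *Lamc1* (signal value 0.987) and the collagen VI chain *Col6a5* (0.770). The 1482 olfactory and vomeronasal receptor genes held 1 exon peak, over *Olfr433* (0.978). That is below the share over all genes, with gene and exon length not taken into account. *Itga11*, a collagen-binding integrin, held the single peak of 59 adhesion and cytoskeleton genes (0.962, 3′ UTR). *Fosb*, a subunit of AP-1, held the single peak of 10 AP-1 genes (0.751, 3′ UTR, with 1 AP-1 core motif in the exon), and *Prrx2*, a homeobox factor of mesenchyme, that of 15 fibroblast transcription factors (0.918, 3′ UTR). None of these 6 peaks passed the stricter threshold. No exon peak fell on the 70 protocadherins, the 39 Hox genes or the 19 pluripotency genes.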

How the data were processed

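MEFs carrying Dam-ZFP266 (5 samples) or Dam alone (5 samples) were profiled by DamID-seq. According to the submitters' processing notes, FastQC, cutadapt, BWA and GRCm38.p6 were used, with no version given in the sources used here. The study's methods state that reads were counted per DpnII fragment and that peaks were called with callPeak of Daim, with an FDR under 0.05 and a log2 fold change above 1 as the example thresholds. The deposited list is 1 table for all samples. The deposited list gives for each peak a score, a signal value and −log10 p- and q-values that the authors obtained. The signal value and −log10 q-value were used as deposited, and the p-value was not used here. Its smallest −log10 q was 1.

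Exons, promoters (1000 bp upstream to 100 bp downstream) and transcript ends came from 45756 curated RefSeq transcripts of GRCm38. Coding sequence took precedence over 5′ UTR, 3′ UTR and noncoding exon. A B1 SINE consensus of 159 bp was built from copies on chromosome 19, and blastn 2.17.0 found 280424 elements of 80 bp or more at 70% identity or more (median 134 bp, 87.4%). AP-1 motifs were exact matches on both strands. Words of 32 bases were counted over the genome on both strands. Finger linkers were read in frame from translated curated transcripts as a histidine, T or S, then GEKP. After GEKP the pattern also asked for F, Y or H, any residue, a cysteine and any residue, with codons unbroken in the genome. Python 3.11.15, numpy 2.4.6, pandas 2.3.3, scipy 1.17.1, pysam 0.24.0 and Biopython 1.88 were used, and scripts were tested on simulated data. Read depth is unknown, since the list holds no counts.

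Named genes were those at the 6 coding, 6 3′ UTR, 4 5′ UTR and 4 noncoding peaks of highest signal value, the longest exon peak, the 6 with most exon bases (ties by signal value), up to 6 genes with 2 or more exon peaks, 6 each for exonic B1 SINEs (by identity), exonic AP-1 motifs and *Zfp* genes (by signal value), and the genes of the other lists, of which some results are not reported here. Members and lists were chosen with earlier results of these data known. Genes named outside that rule (*Gm3055*, *Zfp365*, *Zfp781* and *Zfp68*, and those under the other observations) were chosen after their values were seen. Alternatives covered the annotation, assignment, windows, threshold, fragment number and element definitions.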

Additional observations from a re-analysis of the deposited data

How the results depend on the processing

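No paired analysis was possible because the 10 samples are pooled in 1 peak list and no result comes from a test. Of 79 alternative values, 46 stayed within 1.5 times the count or within the 95% interval of the share or median, and 33 moved further. Part of that tally was fixed by the filters themselves, as with the counts and the median signal value under the stricter threshold. With predicted RefSeq models added there were 616 exon peaks, 126 in 5′ UTRs and 269 in noncoding exons, and the median exon share was 80.5%. With at least 50% of the peak in exons there were 177 exon peaks, 45 coding and 14 5′ UTR. Their median exon share was 88.2%. B1 SINEs were in 22.0% of them and AP-1 core motifs in 27.7%, and *Zfp* genes held 37.8% of coding peaks. That rule favours long exons, and the exon at the midpoint was longer in *Zfp* coding peaks (median 2737 bp against 198 bp). It also took the gene with most coding bases in the peak, so the 37.8% has no matching background here. Without the promoter and transcript end windows there were 45 5′ UTR peaks. At q under 0.05 and a signal value above 1 there were 67 exon peaks, 36 coding, 8 5′ UTR, 14 3′ UTR and 9 noncoding, with a median signal value of 1.28, a median length of 1260 bp and AP-1 core motifs in 26.9%. Among peaks of 1 DpnII fragment there were 177 exon peaks, 79 coding, 14 5′ UTR and 51 3′ UTR. Their median signal value was 0.997, median length 1415 bp and median exon share 66.7%. B1 SINEs were in 24.9% of them, AP-1 core motifs in 27.1%, and 33.9% were past the stricter threshold. The share past that threshold over all peaks of 1 DpnII fragment is not given here, so the 33.9% has no matching background. B1 SINEs of at least 100 bp and 85% identity were in 18.7% of exon peaks (23.8% of all peaks). The central 200 bp held a B1 SINE in 2.38% of exon peaks (7.55% of all peaks). It held an AP-1 core motif in 4.76% of exon peaks (interval 2.86 to 7.83%) and in 6.8% of all peaks. The alternatives with C2H2 fingers counted by translation and without peaks over 40% repeated words were chosen after seeing the data. The cause of each shift was not tested, beyond the fewer or more peaks that each alternative admits.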

Other observations

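Some exon peaks outside the naming rule lie on widely studied genes, picked after their values were seen. Among noncoding RNAs, *Kcnq1ot1*, the antisense RNA of an imprinted domain on chromosome 7, held a peak of 886 bp inside its single exon of 83437 bp (signal value 1.02), and *Tug1* held 1 at exon 3 of 4 (0.770). *Platr30* held a peak (0.831) in which 97.4% of 32-base words occur again in the genome. Among 3′ UTRs, *Cdkn1a*, the cell cycle inhibitor p21, held a peak of 621 bp (1.12) that passed the stricter threshold, and the Krüppel-like factors *Klf13* (0.816) and *Klf9* (0.809) held peaks wholly inside their last exons that did not. None of the *Kcnq1ot1*, *Tug1*, *Cdkn1a*, *Klf13* and *Klf9* peaks held a B1 SINE, whereas the *Platr30* peak and both *Prdm9* peaks named next did. Over all exon peaks 31.6% held one. *Prdm9* held a coding peak at exon 7 of 10 (0.894) besides its 3′ UTR peak (0.999), and the latter covered 11 of its 12 zinc fingers.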
